A study of Mus musculus with 12 samples.

Results

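Nuclear receptor coregulators are the proteins that ligand-bound or unbound receptors recruit to switch target genes on or off. The 9 genes described here were chosen by name, by a rule that holds no measured value although earlier results of these data were known, as the main coactivators and corepressors of ESR1, the nuclear estrogen receptor. They are the steroid receptor coactivators Ncoa1, Ncoa2 and Ncoa3, the receptor coactivator and ferritin cargo receptor Ncoa4, the histone acetyltransferases Crebbp and Ep300, the Mediator subunit Med1, and the corepressors Ncor1 and Nrip1. All 9 were among the 13233 genes listed.

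RNA-Seq was performed on HAFs, primary skeletal muscle fibroblasts grown from the LAM of Aromhum mice, a strain with a human aromatase gene, whose product converts testosterone to E2. The 12 samples formed 4 groups of 3, and all carried the Aromhum genotype: vehicle, which was ethanol with DMSO, E2 at 10 nM, the same dose of E2 plus fulvestrant at 100 nM, and fulvestrant by itself at 100 nM. Treatment lasted 48 hours in every group. Fulvestrant blocks ESR1 and promotes degradation of the receptor protein. The cells were cultured with very little serum, so the values describe passaged fibroblasts outside the muscle, and the age of the mice was not given in the sources used here. Replicates carry the numbers 1, 2 and 3 in every group, and the labels do not say whether these were separate mice or cultures, so the p-values measure only the spread between these samples, which may be technical.

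When E2 binds ESR1, the receptor changes shape and exposes a surface that the steroid receptor coactivators dock on through short leucine-rich motifs. These coactivators bring in Crebbp and Ep300, which acetylate histones. Receptors also touch Med1, a subunit of Mediator, and Mediator contacts RNA polymerase II. Ncor1 carries histone deacetylase complexes to receptors without ligand or bound by certain antagonists, and Nrip1, also called RIP140, docks on ligand-bound receptors and represses them; Nrip1 is a well-known E2-responsive gene in breast cancer cells.

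The values are normalized counts, that is, read counts divided by a factor for each sample. Read numbers were back-calculated from the smallest step between values in each sample and are estimates, since the read counts themselves were not used here. By that estimate each sample held between 18827792 and 44040507 reads on the listed genes, and the members had between 441 and 12332 reads in any sample. All 9 fibroblast markers examined were listed, and 0 of 7 muscle cell markers were, while single markers of other types were listed at low levels, Tek at 58.4 to 277, Cd68 at 28.2 to 112 and Wt1 at 27.2 to 70.5 normalized counts. Replicate 1 stood apart: Thy1, a fibroblast surface protein, was at 36.9 to 78.3 in its 4 samples and at 362 to 562 in the other 8, and Pdgfra was at 23150 to 25827 against 27501 to 40301. In such bulk samples, fewer cells of a type and less RNA per cell cannot be told apart. Pgr, the progesterone receptor gene and a standard target of ESR1, was at 25.4, 85.3 and 104.4 with vehicle, 145, 267.5 and 304 with E2, 14.8, 28.4 and 27 with E2 plus fulvestrant, and 13, 21.5 and 16.2 with fulvestrant. Within each replicate number it was highest with E2 and lower with fulvestrant than with vehicle.

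Differences were taken on the scale of log2(normalized count + 1) in one limma fit of the 12 samples with the replicate number as a block, and a call needed both a fold change over 1.2 and an adjusted p-value (Benjamini-Hochberg over all 13233 genes) under 0.05. No member was called in any of the 7 comparisons made. For E2 against E2 plus fulvestrant, 0 of 9 members were called and 1 had an unadjusted p under 0.05, where 9.6% of all genes were called and 27.3% had such a p. For E2 against vehicle 0 of 9 were called and 0 had an unadjusted p under 0.05, where 0.0756% of all genes were called and 10.1% had such a p. For fulvestrant against vehicle, 0 members were called and 1 had an unadjusted p under 0.05, beside 12.5% of all genes called and 30.5% with such a p. For E2 plus fulvestrant against vehicle, 0 were called and 2 had an unadjusted p under 0.05, beside 12.7% of all genes called and 31.2% with such a p. For E2 plus fulvestrant against fulvestrant, 0 members and 0% of all genes were called, and 0 members but 255 of all genes had an unadjusted p under 0.05. For the mean of the 6 samples with fulvestrant against the mean of the 6 without it, 0 members were called and 4 had an unadjusted p under 0.05, where 15.5% of all genes were called and 39.4% had such a p. For the interaction, which asks whether the E2 difference is the same with and without fulvestrant, 0 members and 0% of all genes were called, with 0 members and 501 of all genes at an unadjusted p under 0.05. Several of these comparisons share samples, so they are not independent of each other.

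In E2 against vehicle the member differences ran from -0.03 to 0.07 on the log2 scale, and the 95% confidence interval reaching farthest from no change, that of Nrip1, ended at a fold of 1.29. In E2 against E2 plus fulvestrant the differences ran from -0.25 to 0.15 and the farthest interval, again that of Nrip1, reached a fold of 0.682, which is 1.47-fold taken the other way. The median difference of the members was -0.02 in E2 against E2 plus fulvestrant, and that of all genes was -0.01. These are interval ends and not limits of detection, and the tests do not show that levels were equal.

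**Figure D1:**
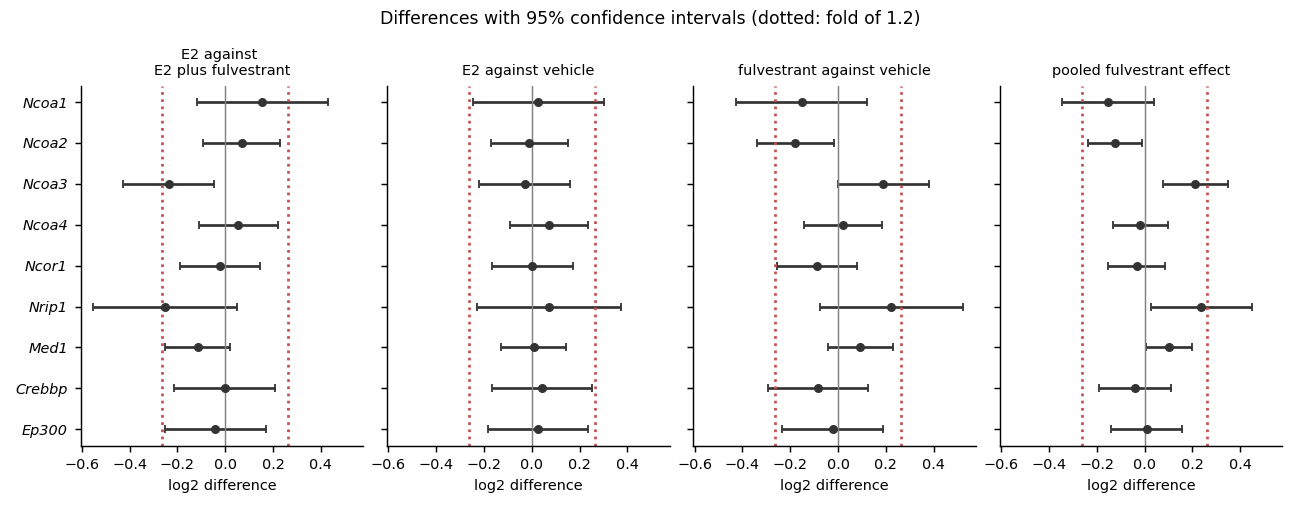
Log2 differences of the 9 members (horizontal axis, points with 95% confidence intervals) in 4 of the comparisons, from a limma fit with the replicate number as a block. Dotted lines mark a fold of 1.2 in either direction. The E2 against vehicle points lie between -0.03 and 0.07, and the intervals that exclude 0 are that of Ncoa3 in E2 against E2 plus fulvestrant, that of Ncoa2 in fulvestrant against vehicle, and those of Ncoa2, Ncoa3, Nrip1 and Med1 in the pooled fulvestrant comparison, where all 6 samples with fulvestrant are set against the 6 without.

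The members differed in level, compared here as normalized counts per kb of exon. The length used joins all annotated exons of a gene, for example 15.642 kb for Ncoa2 and 7.895 kb for Ncoa3. The transcripts expressed may be shorter, so the order, percentiles and ratios between genes depend on this choice. Ncor1 was highest at 596 ± 36.9 (SD, n = 12), followed by Crebbp at 565 ± 50.2, Med1 at 488 ± 41.6 and Ncoa3 at 457 ± 72.7. Ep300 was at 361 ± 40.4, Nrip1 at 319 ± 44.4, Ncoa2 at 253 ± 28.1, Ncoa4 at 161 ± 14.4 and Ncoa1 at 122 ± 36.2. Ncor1 thus stood at the 81.5th percentile of listed genes and Ncoa1 at the 36.4th. Of neighbours in this order, only Ncoa2 and Ncoa4 had ranges over the 12 samples that did not overlap. Ncor1 was above Crebbp in 11 of 12 samples, Med1 was above Ncoa3 in 8 of 12 and Ncoa4 was above Ncoa1 in 8 of 12. Ncoa3 was above Ep300 and Ncoa2 above Ncoa4 in 12 of 12 samples. Among members, the ratio of the highest to the lowest sample was largest for Ncoa1 at 2.26 and smallest for Ncor1 at 1.26.

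**Figure D2:**
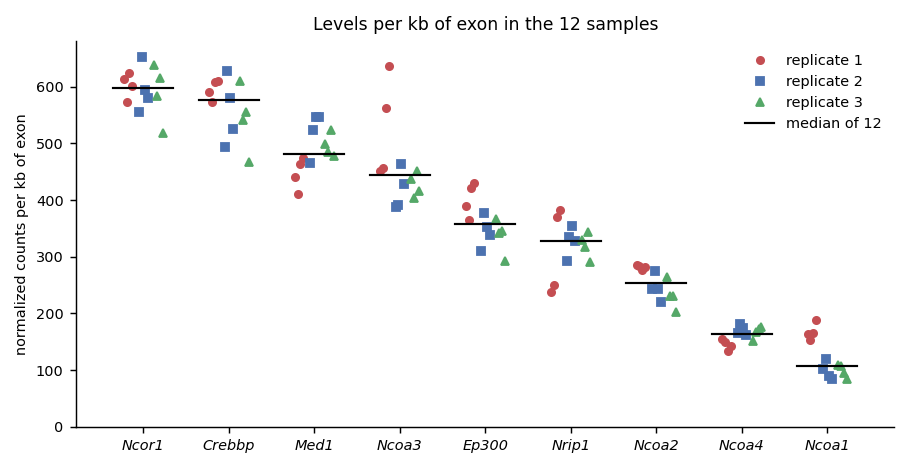
Normalized counts per kb of exon (vertical axis, from 0) for the 9 members in the 12 samples, ordered by mean, with replicate numbers by colour and marker and a line at the median of 12. The 4 groups are side by side within each replicate number, from left to right vehicle, E2, E2 plus fulvestrant and fulvestrant. Ncor1 and Crebbp lead, and the replicate 1 samples of Ncoa1 sit above its other 8.

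Of the steroid receptor coactivators, Ncoa3 (SRC-3 or AIB1, ENSMUSG00000027678, chr2:165992636-166073242 in GRCm38, plus strand) came nearest to a call. Ncoa3 was at 3562, 3066 and 3445 normalized counts in replicates 1, 2 and 3 with vehicle, 3600, 3093 and 3182 with E2, 4443, 3657 and 3561 with E2 plus fulvestrant, and 5021, 3380 and 3289 with fulvestrant. In replicates 1 and 2 both samples with fulvestrant were above both without it, and in replicate 3 they overlapped. E2 against E2 plus fulvestrant gave a log2 difference of -0.24 (SE 0.087, 95% interval -0.43 to -0.04, adjusted p = 0.103), below zero in 3 of 3 replicate numbers. Fulvestrant pooled over E2 gave 0.21 (SE 0.061, adjusted p = 0.0242), a fold of 1.16, which passed the adjusted p-value but not the fold of 1.2. By the adjusted p-value alone it was 1 of 9 members to pass, where 28.4% of all genes did. Without replicate 3 it was called, at 0.30 (SE 0.068, fold 1.23, adjusted p = 0.0346), where 10.1% of all genes were called. Without replicate 1 it was 0.12 (SE 0.045, fold 1.09, adjusted p = 0.0711), and without the replicate block the adjusted p was 0.477.

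Ncoa1 (SRC-1, ENSMUSG00000020647, chr12:4247362-4477182, minus strand) was at 1407, 877 and 935 normalized counts with vehicle, 1312, 1018 and 917 with E2, 1416, 766 and 818 with E2 plus fulvestrant, and 1615, 727 and 715 with fulvestrant. Replicate 1 was above replicates 2 and 3 in every group, and fulvestrant samples were the lower ones in replicates 2 and 3 but not in replicate 1. Over the 12 samples the pooled fulvestrant difference was -0.15 (SE 0.088, adjusted p = 0.222). Without replicate 1, Ncoa1 was called in 3 comparisons. It then gave 0.29 in E2 against E2 plus fulvestrant (SE 0.084, adjusted p = 0.0462, 12.2% of all genes called), lower with fulvestrant than with vehicle at -0.33 (SE 0.084, adjusted p = 0.0197, 17.5% of all genes), and lower in the pooled comparison at -0.31 (SE 0.059, adjusted p = 0.00319, 17.6% of all genes). These calls rest on 2 samples a group and were read after the 12-sample values were known.

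Ncoa2 (SRC-2 or GRIP1, ENSMUSG00000005886, chr1:13139105-13374083, minus strand) ranged from 3167 to 4462 normalized counts. With vehicle it was at 4462, 3803 and 4120, and with fulvestrant alone at 4411, 3449 and 3167, so that the fulvestrant sample was the lower in 3 of 3 replicate numbers although the groups overlapped. That difference was -0.18 (SE 0.073, 95% interval -0.34 to -0.02, adjusted p = 0.123), and the pooled fulvestrant difference was -0.12 (SE 0.052, adjusted p = 0.1002). Without replicate 1 the difference between fulvestrant and vehicle was -0.26 (SE 0.078) and passed the adjusted p-value at 0.0382, with a fold of 0.835, but not the fold threshold.

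Because these coactivators dock on the same receptor surface, their shares of one total were also computed per kb of exon. Ncoa3 made up 49.9% to 54.4% of the sum of Ncoa1, Ncoa2 and Ncoa3 in the 6 samples without fulvestrant and 56.0% to 59.3% in the 6 with it. The ranges did not overlap. Ncoa2 made up 31.1% to 34.9% without fulvestrant and 25.5% to 30.6% with it, and these ranges did not overlap either. Ncoa1 made up 13.5% to 18.2% without it and 11.2% to 17.0% with it, which overlapped. The shares are parts of one total, so they do not move independently. They were looked at after the values of their parts were known, and no test is given. RNA shares do not measure the proteins.

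Nrip1 (ENSMUSG00000048490, chr16:76287400-76373827, minus strand) had a pooled fulvestrant difference that rested on replicate 1. Its normalized counts were 2722, 3354 and 3773 with vehicle, 2869, 3838 and 3634 with E2, 4235, 4048 and 3942 with E2 plus fulvestrant, and 4386, 3752 and 3329 with fulvestrant. In replicate 1 both samples with fulvestrant were far above both without it, whereas in replicates 2 and 3 they were interleaved. Over all samples the pooled fulvestrant difference was 0.24 (SE 0.096, adjusted p = 0.0901), which without replicate 1 was 0.04 (SE 0.053, adjusted p = 0.582), and E2 plus fulvestrant against vehicle gave 0.32 (SE 0.136, 95% interval 0.02 to 0.62, adjusted p = 0.131), higher in 3 of 3 replicate numbers but at 0.17 (SE 0.076, adjusted p = 0.172) without replicate 1. E2 against vehicle gave 0.07 (SE 0.136, adjusted p = 0.880), a 95% interval from -0.23 to 0.37.

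The fulvestrant difference was also fitted within each replicate number, 2 samples with fulvestrant against 2 without, and the equality of the 3 differences was tested. On each side 1 of the 2 samples had E2, and 1 E2 term was shared by all replicate numbers. No condition was repeated within a replicate number, so the SE comes from a spread pooled over the 12 samples. The test of equality was added after the values were seen. One member, Nrip1, passed, so 1 of 9 members passed where 3.66% of all genes did. The Nrip1 difference was 0.62 (SE 0.075, adjusted p = 0.000112) in replicate 1, 0.12 (adjusted p = 0.309) in replicate 2 and -0.03 (adjusted p = 0.807) in replicate 3, and the adjusted p for unequal differences was 0.00953. It did not pass without the variance trend (adjusted p = 0.0976), without the replicate 1 sample of vehicle (0.0614) or without the replicate 1 sample of fulvestrant (0.0828).

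Ncoa3 followed the same order of replicate numbers, with 0.40 (SE 0.073, adjusted p = 0.00253), 0.19 (adjusted p = 0.0991) and 0.05 (adjusted p = 0.693), but the test of unequal differences gave an adjusted p of 0.185. For Ncoa1 the differences were 0.15 (adjusted p = 0.355), -0.34 (adjusted p = 0.0356) and -0.28 (adjusted p = 0.0742), and the adjusted p for unequal differences was 0.117. Taken singly, the fulvestrant difference passed an adjusted p of 0.05 for Nrip1 and Ncoa3 in replicate 1 (15.4% of all genes), for Ncoa1 in replicate 2 (16.4%) and for 0 members in replicate 3 (16.9%), where 2 had an unadjusted p under 0.05. No member besides these 3 passed within any replicate number. Thy1 and Pdgfra also set replicate 1 apart, as given above, and their part in the Nrip1 result was not tested.

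**Figure D3:**
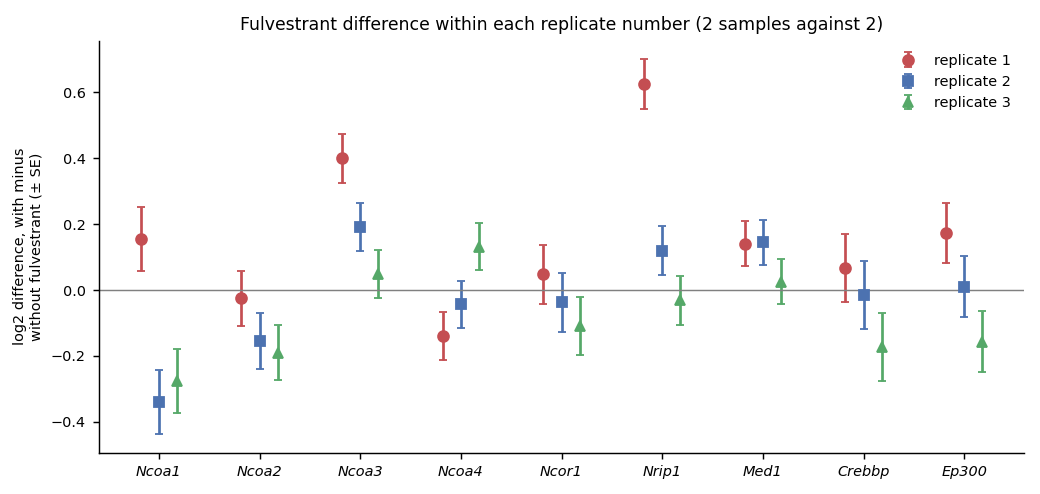
Log2 difference between samples with and without fulvestrant (vertical axis, ± SE) for each member within replicate numbers 1, 2 and 3, each from 2 samples against 2. On each side 1 of the 2 samples had E2, and the SE comes from a spread pooled over all samples. Nrip1 stands at 0.62 in replicate 1 and at 0.12 and -0.03 in the others, and Ncoa1 changes sign between replicate 1 and the others.

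The promoters of Nrip1 and Ncoa1 are shown because the fulvestrant differences of these members varied most with the replicate number. Each is the 250 bases before the transcription start in RefSeq's GRCm38.p6, read 5′ to 3′ on the gene's own strand, chr16:76373828-76374077 (minus) for Nrip1 and chr12:4477183-4477432 (minus) for Ncoa1. Capitals mark GGTCA, 1 arm of the palindromic estrogen response element, searched on both strands together with its reverse complement TGACC:
Nrip1: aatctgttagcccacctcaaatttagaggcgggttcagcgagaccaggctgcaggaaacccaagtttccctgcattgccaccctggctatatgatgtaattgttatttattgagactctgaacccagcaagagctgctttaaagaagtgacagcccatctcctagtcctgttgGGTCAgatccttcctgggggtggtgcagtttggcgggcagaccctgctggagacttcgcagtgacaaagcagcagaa
Ncoa1: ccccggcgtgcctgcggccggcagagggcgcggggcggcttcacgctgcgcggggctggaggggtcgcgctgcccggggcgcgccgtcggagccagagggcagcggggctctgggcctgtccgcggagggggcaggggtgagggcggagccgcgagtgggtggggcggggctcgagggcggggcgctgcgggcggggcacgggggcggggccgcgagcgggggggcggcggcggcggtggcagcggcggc
The Nrip1 window holds 1 such arm, which begins 77 bases upstream, in sequence of 51.2% GC, and the Ncoa1 window holds none and is 85.6% GC. The 7 members other than Ncoa2 and Ncoa3 had 11 windows in all, and an arm lies in 2 of these 11, of Nrip1 and of Ncoa4. It lies in 35.24% of all 32851 promoter windows of this length. The full palindrome GGTCANNNTGACC lies in 0 member windows and in 0.06% of all windows.

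Med1 (ENSMUSG00000018160, chr11:98152154-98193293, minus strand), the Mediator subunit that receptors touch, was at 3853, 4080 and 4364 normalized counts with vehicle, 3597, 4585 and 4242 with E2, 4058, 4778 and 4577 with E2 plus fulvestrant, and 4150, 4788 and 4189 with fulvestrant. Samples with fulvestrant were above those without it in replicates 1 and 2 and overlapped them in replicate 3. The pooled fulvestrant difference was 0.10 (SE 0.043, 95% interval 0.01 to 0.20, adjusted p = 0.101), and E2 against E2 plus fulvestrant gave -0.11 (SE 0.062, adjusted p = 0.260).

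The histone acetyltransferases and Ncor1 had pooled fulvestrant differences near 0. Crebbp (CBP, ENSMUSG00000022521, chr16:4081328-4213997, minus strand) ranged from 6328 to 8509 normalized counts, Ep300 (its paralogue, ENSMUSG00000055024, chr15:81585351-81652077, plus strand) from 4166 to 6129, and Ncor1 (ENSMUSG00000018501, chr11:62316426-62458541, minus strand) from 6649 to 8361. The lowest sample of each was fulvestrant replicate 3, and every pair of groups overlapped. In the pooled fulvestrant comparison their log2 differences were -0.04 (95% interval -0.19 to 0.11) for Crebbp, 0.01 (-0.14 to 0.16) for Ep300 and -0.03 (-0.15 to 0.09) for Ncor1, so a pooled change of the fold of 1.2 lay outside each interval. Crebbp per kb of exon was 1.42 to 1.67 times Ep300 in the 12 samples, and Ncor1 was 0.986 to 1.12 times Crebbp.

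**Figure D4:**
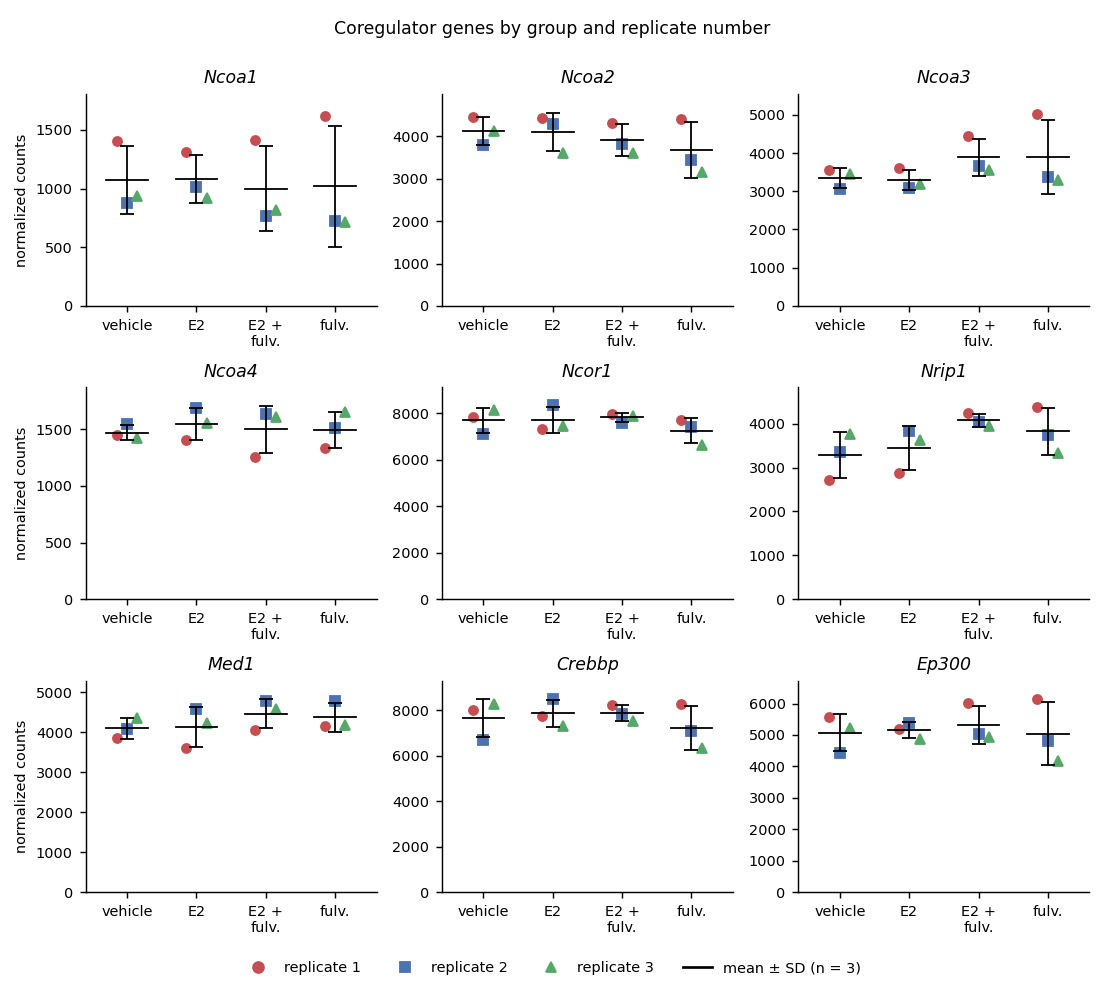
Normalized counts (vertical axis, from 0) of the 9 members in the 12 samples by group, with the replicate number as colour and marker and a line and bar for the mean ± SD (n = 3). The replicate 1 points of Ncoa1 lie above the others in every group, and those of Nrip1 lie lowest without fulvestrant and highest with it.

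Ncoa4 (ENSMUSG00000056234, chr14:32159865-32179855, plus strand) also delivers ferritin to lysosomes so that its iron can be released, so the iron genes around it were read beside it. Ncoa4 was at 1447, 1549 and 1422 normalized counts with vehicle, 1406, 1690 and 1559 with E2, 1257, 1633 and 1609 with E2 plus fulvestrant, and 1334, 1509 and 1653 with fulvestrant. The 4 groups overlapped, and the pooled fulvestrant difference was -0.02 (SE 0.052, 95% interval -0.13 to 0.10, adjusted p = 0.837). Of 7 ferritin and iron genes, 3 rose and 1 fell with fulvestrant in the pooled comparison and 3 were not called, where 15.5% of all genes were called. Fth1, the ferritin heavy chain, rose by 0.61 (SE 0.101, adjusted p = 0.00139), Ftl1, the light chain, by 0.35 (SE 0.089, adjusted p = 0.0134) and Tfrc, the transferrin receptor that takes iron in, by 0.84 (SE 0.059, adjusted p = 5.2e-06). Slc40a1, ferroportin, which exports iron, changed by -0.88 (SE 0.133, adjusted p = 0.000714).

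In E2 against E2 plus fulvestrant, Tfrc was called lower at -0.76 (adjusted p = 0.000281) and Slc40a1 higher at 0.77 (adjusted p = 0.0242), while Fth1 at -0.47 (adjusted p = 0.0562) and Ftl1 at -0.26 (adjusted p = 0.206) were not called. Fth1 was at 55608, 78492 and 69337 with vehicle, 66399, 92552 and 86400 with E2, 117839, 108146 and 111531 with E2 plus fulvestrant, and 102626, 107182 and 128047 with fulvestrant, so all 6 samples with fulvestrant were above all 6 without it. Tfrc was at 480, 1496 and 1533 with vehicle and at 874, 2935 and 2914 with fulvestrant, the lower value of each group being that of replicate 1. Fth1 and Ftl1 were named after their values were seen. Without the replicate block, 1 of these 7 genes, Slc40a1, was called in the pooled comparison. In E2 against E2 plus fulvestrant 0 were then called, with adjusted p-values of 0.992 for Tfrc and 0.206 for Slc40a1.

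**Figure D5:**
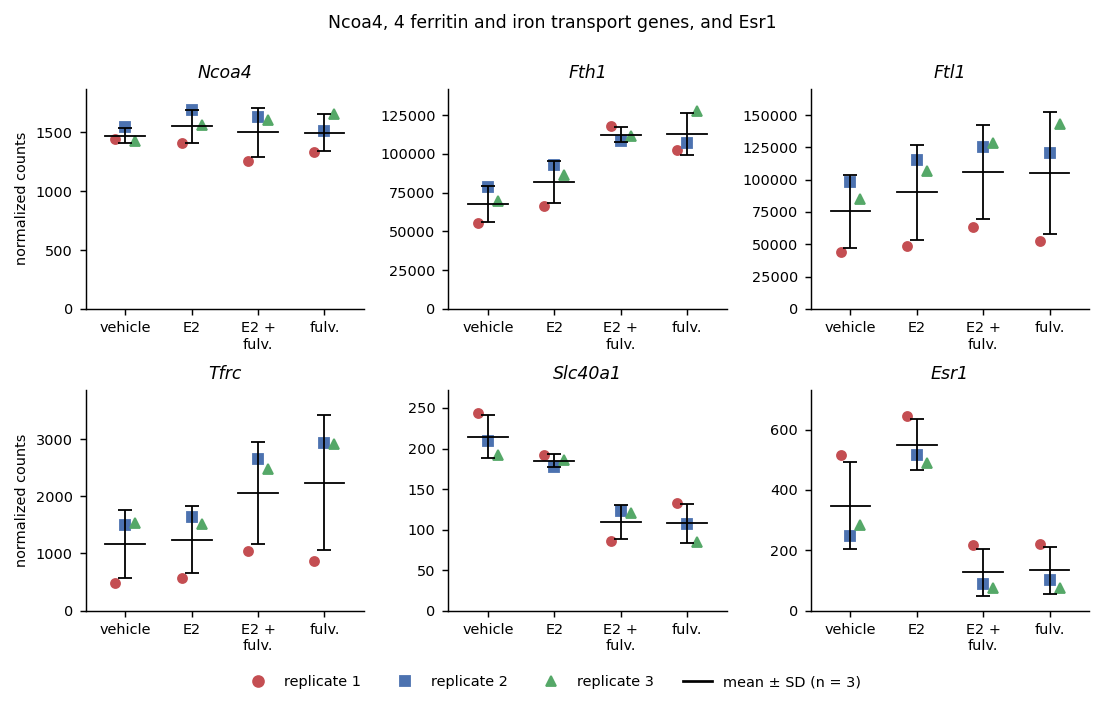
Normalized counts (vertical axes, from 0) of Ncoa4, of the iron genes Fth1, Ftl1, Tfrc and Slc40a1, and of Esr1 in the 12 samples by group, with the replicate number as colour and marker and the mean ± SD (n = 3). The 4 groups of Ncoa4 overlap, while the Fth1 samples with fulvestrant all lie above those without.

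Genes of several receptors that the members serve changed. Esr1 was at 515, 247.1 and 282.5 normalized counts with vehicle, 646.1, 515.7 and 488.7 with E2, 215.7, 87.1 and 76.4 with E2 plus fulvestrant, and 221.6, 100.8 and 76.2 with fulvestrant. Each E2 sample was above its E2 plus fulvestrant partner, by 2.26 on the log2 scale (SE 0.201, adjusted p = 8.23e-05; adjusted p = 0.0925 without the replicate block). Of 18 nuclear receptor genes listed of 21 sought, 4 were higher and 2 lower in E2 against E2 plus fulvestrant, where 9.6% of all genes were called. The higher ones included Pgr at 3.28 (SE 0.270), Esr1 and the glucocorticoid receptor gene Nr3c1 at 0.37 (SE 0.094), and the lower ones were Nr1h3, a sterol receptor gene, at -0.85 (SE 0.165) and the thyroid hormone receptor gene Thrb at -0.60 (SE 0.090). Against vehicle, E2 raised 1 of the 18, Pgr, by 1.88 (SE 0.270, adjusted p = 0.0343), where 0.0756% of all genes were called. Without the replicate block, 2 of the 18 were called in E2 against E2 plus fulvestrant, Pgr (adjusted p = 0.0271) and Thrb (adjusted p = 0.0275), and the adjusted p of Pgr in E2 against vehicle was 0.9999.

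The partners of the members were called at shares near that of all genes in E2 against E2 plus fulvestrant or below it. Of 26 coactivator partners listed of 27 sought (histone modifiers, remodellers and other coactivators), 1 was higher and 1 lower in that comparison, where 9.6% of all genes were called. Ppargc1a, a coactivator of mitochondrial and metabolic genes, was higher at 0.66 (SE 0.126, adjusted p = 0.00718), and Trim24, a receptor-binding chromatin reader, was lower at -0.32 (SE 0.087, adjusted p = 0.0369). Of 31 Mediator subunits listed of 32 sought, Med30 was higher at 0.27 (SE 0.076, adjusted p = 0.0444) and Med8 lower at -0.32 (SE 0.095, adjusted p = 0.0497). In fulvestrant against vehicle, where 12.5% of all genes were called, 4 of the 26 coactivator partners were called, Ncoa7 higher at 0.29 and Ppargc1a at -0.78, Smarca2 at -0.38 and Cited2 at -0.26 lower, and 2 of the 31 Mediator subunits, Med8 at 0.32 and Med10 at 0.27, were higher. Of 25 corepressor partners listed of 26 sought, 0 were called by limma in each of the 7 comparisons, and 10 had an unadjusted p under 0.05 in E2 against E2 plus fulvestrant, where 27.3% of all genes did. In E2 against E2 plus fulvestrant, Sirt1 at -0.24 (adjusted p = 0.0153) and Ctbp2 at -0.19 (adjusted p = 0.0384) passed the adjusted p-value but not the fold, and both were named after their values were seen. Neither passed without the replicate block (adjusted p = 0.166 for Sirt1 and 0.995 for Ctbp2). The median differences of the coactivator partners, Mediator subunits and corepressor partners were 0.01, -0.01 and -0.05, beside -0.01 for all genes. Without the replicate block, the adjusted p of the 4 genes called in E2 against E2 plus fulvestrant ran from 0.547 (Med30) to 0.992 (Ppargc1a), and that of the 6 called in fulvestrant against vehicle from 0.384 (Ncoa7) to 0.937 (Ppargc1a).

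Replicate number and treatment took unequal shares of the members' variation. Between replicate numbers, 6 of 9 members differed at an adjusted p under 0.05 in limma's F test, where 62.5% of all genes did, so the share of members was near that of all genes. Ncoa1 had means of 1438, 847 and 846 normalized counts in replicates 1, 2 and 3, so that replicate 1 was 0.77 above the mean of the others on the log2 scale (adjusted p = 0.000106). Replicate 1 was also higher for Ncoa3 by 0.31 (adjusted p = 0.00522), Ncoa2 by 0.25 (adjusted p = 0.00552) and Ep300 by 0.24 (adjusted p = 0.0355), and it was lower for Ncoa4 at -0.21 (adjusted p = 0.0168) and Med1 at -0.18 (adjusted p = 0.0107). Ncor1 (adjusted p = 0.877), Nrip1 (0.702) and Crebbp (0.327) did not pass. Ep300 no longer passed without the variance trend (adjusted p = 0.0785) or when any of 7 of the 12 samples was left out (0.0552 to 0.153), Med1 under quantile normalization (0.0763) or without E2 replicate 1 (0.0506), and Ncoa4 without replicate 1 of E2 plus fulvestrant (0.0909) or of fulvestrant (0.0529). Replicate number took 84.8% of the sum of squares of Ncoa1 and treatment 3.93%, whereas for Nrip1 the shares were 5.03% and 39.2%. Over all genes the medians were 57.7% for replicate number and 17.9% for treatment.

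As a description over the 12 samples, with values centred within replicate numbers, the genes most like each member by Pearson correlation were named. For Nrip1 they were Abca1 (0.99), which exports cholesterol, Zeb1 (0.98), a transcriptional repressor, and Hdac4 (0.97), a histone deacetylase that is also among the corepressor partners. Nrip1 ran from 2722 to 4386 normalized counts in replicate 1, 3354 to 4048 in replicate 2 and 3329 to 3942 in replicate 3. Replicate 1 therefore weighs most in the Nrip1 correlations. For Ncoa1 they were Amot (0.98), Vps13b (0.98) and Fyco1 (0.97), for Ncoa2 Mcm3ap, Cplane1 and Trerf1 (all 0.96), and for Ncoa3 Rhobtb2 (0.97), Usp53 and Kif13b (both 0.96). Ep300 was nearest to Myo9a (0.98), Rsf1 (0.98) and Ash1l (0.97), and Med1 to Ranbp2, Sbno1 (both 0.97) and Fryl (0.96). Crebbp and Ncor1 shared Cep350 and Bmpr2, with Usf3 (0.97) for Crebbp and Pbrm1 (0.95) for Ncor1. Ncoa4 was nearest to Mtln (0.93), Nap1l4 (0.92) and Nelfe (0.88). The 25 distinct genes had a median exon length of 12.6 kb, against 4.27 kb for the 13149 genes with a length. The samples behind each correlation share their libraries and depth, and the part of gene length in these correlations was not tested.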

How the data were processed

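RNA-Seq of 12 HAF samples was analysed. Per the labels and the methods, the authors trimmed reads with Trimmomatic 0.39, aligned them to mm10 with STAR 2.5.2, counted reads by gene and strand with HTSeq 0.13.5, removed low counts and normalized by DESeq2 1.37. What the authors deposited is 1 signal value for each gene in each sample, a normalized count, which is the read count over that sample's size factor. The methods also name batch adjustment, but the deposited values still differ by replicate number. The smallest value was 8.27, and the reads on listed genes, back-calculated from the steps between values, had an estimated median of 31703872 per sample.

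The log2 of the deposited value plus 1 was fitted in R 4.3.3 with limma 3.58.1 (eBayes, variance trend) on 12 samples with group and replicate number as terms. P-values were adjusted over all 13233 genes. The replicate numbers come from the labels. Samples of the same number deviated together from their group means (correlation 0.63 to 0.92 over 18 pairs), which is why the number was kept as a block. Gene positions, exon lengths and symbols (13149 of 13233 identifiers) came from GENCODE M21, and promoters from RefSeq.

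The members and gene lists were chosen with earlier results of these data known. The genes named were the 9 members, Pgr and Esr1, up to 4 genes a list called in E2 against E2 plus fulvestrant with the largest change, and the 3 genes most like each member; Fth1, Ftl1, Nr3c1, Thrb, Sirt1, Ctbp2, Ncoa7, Smarca2, Cited2, Med10 and the markers printed by value were added after values were seen. One named gene of the lists is not reported here. The fit was tested on simulated data. Alternatives were the pseudocount (0.5 and 10), a filter on a mean of 100, adjusted p alone, CPM or quantile scaling, a fit without the block, without the variance trend or on only the groups compared, and omission of each sample or replicate number. Python 3.11.15 with pandas 2.3.3, numpy 2.4.6 and matplotlib 3.10.9 was used.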

Additional observations from a re-analysis of the deposited data

Results flagged for a closer look

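The fulvestrant difference of Nrip1 was not the same in the 3 replicate numbers, by a limma F test of the difference itself (adjusted p = 0.00953). It was 0.62 in replicate 1, 0.12 in replicate 2 and -0.03 in replicate 3 on the log2 scale, each from 2 samples with fulvestrant against 2 without. On each side 1 of the 2 samples had E2, so no condition was repeated within a replicate number. The test was added after the values were seen, and 3.66% of all genes passed it. Nrip1 did not pass it without the variance trend (adjusted p = 0.0976), without vehicle replicate 1 (0.0614) or without fulvestrant replicate 1 (0.0828).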

How the results depend on the processing

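The number of members called stayed at 0 of 9 in every comparison under another pseudocount, the filter, no replicate block, no variance trend, quantile normalization and CPM. It also stayed at 0 in fits on only the groups compared, which were not run for the pooled comparison or the interaction. By adjusted p alone, 1 member (Ncoa3) passed in the pooled fulvestrant comparison. Leaving out 1 sample or 1 replicate number gave 0 to 1 members called in E2 against E2 plus fulvestrant, fulvestrant against vehicle, E2 plus fulvestrant against vehicle and the pooled comparison, and 0 in the other 3. Besides the Ncoa1 calls without replicate 1, these were Ncoa3 in the pooled comparison without replicate 3 (0.30, adjusted p = 0.0346), Nrip1 in the pooled comparison without vehicle replicate 3 (0.30, adjusted p = 0.0422) or without fulvestrant replicate 3 (0.31, adjusted p = 0.0371; 14.4% of all genes called in both), and, without fulvestrant replicate 1, Ncoa1 in fulvestrant against vehicle (-0.33, adjusted p = 0.0423, 15.6% of all genes) and Nrip1 in E2 plus fulvestrant against vehicle (0.32, adjusted p = 0.0435, 14.5% of all genes). Fulvestrant replicate 1 is in neither group of that last comparison. The Nrip1 difference there stayed at 0.32, and only its SE changed, from 0.136 to 0.099.

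Without the replicate block, 0 of 9 members were called in each comparison (1, Nrip1, had an unadjusted p under 0.05, in the pooled comparison), and the genes called fell from 1270 to 69 in E2 against E2 plus fulvestrant, from 10 to 1 in E2 against vehicle, from 1648 to 72 in fulvestrant against vehicle, from 1681 to 60 in E2 plus fulvestrant against vehicle and from 2054 to 310 in the pooled comparison. Unequal fulvestrant differences between replicate numbers were found for 0 members without the variance trend (1.09% of all genes), and for 0 to 2 when 1 sample was left out (at most 7.95% of all genes; 2 members without vehicle replicate 2, at 7.95%, with Ncoa1 at an adjusted p of 0.0336). Of 549 member differences recomputed with all samples, 20 had another sign, and of 945 with samples left out, 122 did; the causes were not tested. With 1 sample left out, 4 to 6 of 9 members differed between replicate numbers, beside 55.9% to 61.7% of all genes, and omission of a whole replicate number was not run for that test. Planned tests on read counts were not run. Each group had 3 samples.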
